A study of Homo sapiens with 10 samples.

Results

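Gene expression on 6 arrays of HEK-293 cells transfected with a small interfering RNA (siRNA) against a long non-coding RNA was compared with 4 arrays of cells transfected with a control siRNA. The 3 target siRNAs were LOC440173 siRNA 1, LOC440173 siRNA 2 and an siRNA against PAXIP1-AS1, with 2 arrays each. A gene was taken as a member when its values on all 6 target arrays lay above, or all lay below, its values on all 4 control arrays, with no minimum distance. Of 18404 genes, 651 lay above on every target array (3.54%) and 873 lay below (4.74%), 1524 in all (8.28%). In the remaining genes target and control arrays overlapped.

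The LOC440173 siRNAs were used at 10 nM and the PAXIP1-AS1 siRNA at 100 nM, and the control siRNA was transfected at both doses, giving 5 groups of 2 arrays. All cells were harvested 48 hours after transfection with the lipid reagent RNAiMax, in medium with serum. HEK-293 is an established human embryonic kidney line that was transformed with adenovirus DNA, and adenovirus E1B protein is known to bind p53. The labels call the arrays of a group biological replicates without saying what was separate, so a p-value measures only the spread between these arrays. All 4 control arrays carried the same commercial control duplex, whose sequence is confidential per the labels. An effect shared by the target siRNAs and an effect of the control duplex with the opposite sign therefore cannot be told apart.

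An siRNA guides the Argonaute protein to transcripts that pair with it, and through its seed it can also lower transcripts that pair only in part. Long non-coding RNAs do not encode proteins, and some of them act on chromatin or on neighbouring genes. The tumour suppressor p53 is a transcription factor that, when stabilised by stress, switches on genes for cell cycle arrest, repair, death receptors and its own ubiquitin ligase MDM2. Genes for mitosis are transcribed late in the cell cycle, many of them from promoters with CCAAT boxes bound by NF-Y and with a CHR element, TTTGAA, bound by the DREAM and MuvB complexes.

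Values are log2 expression levels after RMA, so a difference of 1 is a doubling of signal. A gene was called higher or lower where limma, with the 6 target arrays as a group and the 4 control arrays as the other, gave a Benjamini-Hochberg adjusted p under 0.05 over all 18404 genes. Differences between siRNAs enter the spread of that fit. It called 178 genes higher (0.967% of all genes) and 131 lower (0.712%), 309 in all (1.68%), and each of them was also a member by the overlap rule. Both criteria read the same 10 arrays, so neither supports the other. The counts depended on the arrays: without control 10 nM replicate 1 or 2 they were 60 and 23 or 105 and 38, and without control 100 nM replicate 1 or 2 they were 58 and 28 or 71 and 26 (higher and lower). The count of lower genes was 78, 77 and 62 without siRNA 1 replicate 1, siRNA 1 replicate 2 and siRNA 2 replicate 1, and 205 and 243 without PAXIP1-AS1 replicate 1 and 2. Arrays of the same siRNA are not independent, and with the 5 groups as a random block limma called 28 higher and 7 lower.

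Each siRNA was also set against the control of its own dose in a fit with a mean per group. In that fit limma called 28.8% of all genes with siRNA 1, 30.0% with siRNA 2 and 4.62% with the PAXIP1-AS1 siRNA, and the LOC440173 siRNAs share their 2 control arrays. Between the 2 control doses limma called 0 genes (0.0%), while 692 had an unadjusted p under 0.05.

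The arrays were alike in scale, with medians from 7.06 to 7.12. LINC02893, the current name of LOC440173, was not a member: it read 8.48, 8.60, 8.50 and 8.60 on the controls, 7.72 and 7.43 with siRNA 1, 6.71 and 6.59 with siRNA 2, and 8.54 on both PAXIP1-AS1 arrays. PAXIP1-AS1 had 0 listed probe sets, so its level was not analysed here. Its neighbour PAXIP1 also overlapped, with a difference of 0.11 (SE 0.10, limma adjusted p = 0.65). Kidney tubule markers were mostly low, with 1 of 16 at or above the median level of all genes (7.66) in the controls, against 8 of 16 podocyte and nephron progenitor markers and 8 of 19 neuronal markers. None of 12 blood cell markers and none of 15 hepatocyte markers reached that level (0 in each list), and no marker list had more than 1 called gene.

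The widest separation was that of CA2, the cytosolic carbonic anhydrase II. It read 11.25 and 11.25 in the control at 10 nM and 11.17 and 11.11 in the control at 100 nM, but 12.48 and 12.43 with siRNA 1, 12.35 and 12.34 with siRNA 2, and 12.52 and 12.53 with the PAXIP1-AS1 siRNA. The lowest target array stood 1.09 above the highest control array, so the groups were far from overlapping. CA2 rose by 1.25 (SE 0.06), a 2.38-fold higher signal, with a limma adjusted p of 4.9e-06.

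Promoter sequences are shown for a leading gene of each direction and for 4 mitotic genes described further on. They come from RefSeq (GRCh38.p14), run 5′ to 3′ on the strand of the gene and cover 250 bases before to 50 after the annotated start. Capitals mark each GGGCGG (GC box), read on either strand, in HSD17B10 (chrX:53434327-53434626, minus strand), which lay above the controls, and MDM2 (chr12:68807922-68808221, plus strand), which lay below.
HSD17B10: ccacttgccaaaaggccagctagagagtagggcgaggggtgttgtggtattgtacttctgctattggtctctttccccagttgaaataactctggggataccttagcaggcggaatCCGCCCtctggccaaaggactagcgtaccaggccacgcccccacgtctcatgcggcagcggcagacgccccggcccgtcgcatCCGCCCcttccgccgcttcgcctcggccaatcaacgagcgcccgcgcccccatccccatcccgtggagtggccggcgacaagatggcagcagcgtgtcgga
MDM2: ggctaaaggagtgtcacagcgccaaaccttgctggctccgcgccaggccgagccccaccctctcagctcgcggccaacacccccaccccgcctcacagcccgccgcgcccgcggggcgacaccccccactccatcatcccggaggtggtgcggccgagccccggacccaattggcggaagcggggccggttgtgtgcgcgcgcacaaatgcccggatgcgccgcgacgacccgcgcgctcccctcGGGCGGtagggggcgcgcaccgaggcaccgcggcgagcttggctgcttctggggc
In CDC20 (chr1:43358731-43359030, plus strand), KIF11 (chr10:92592880-92593179, plus strand), CDK1 (chr10:60778081-60778380, plus strand) and TOP2A (chr17:40417847-40418146, minus strand), capitals mark CCAAT and TTTGAA, on either strand. All 4 genes lay above the controls on every target array.
CDC20: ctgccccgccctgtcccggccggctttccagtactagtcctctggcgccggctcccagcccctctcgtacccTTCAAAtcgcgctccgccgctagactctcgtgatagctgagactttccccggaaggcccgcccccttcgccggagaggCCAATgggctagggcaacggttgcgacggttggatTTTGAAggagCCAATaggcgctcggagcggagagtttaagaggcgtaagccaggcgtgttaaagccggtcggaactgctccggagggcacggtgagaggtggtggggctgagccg
KIF11: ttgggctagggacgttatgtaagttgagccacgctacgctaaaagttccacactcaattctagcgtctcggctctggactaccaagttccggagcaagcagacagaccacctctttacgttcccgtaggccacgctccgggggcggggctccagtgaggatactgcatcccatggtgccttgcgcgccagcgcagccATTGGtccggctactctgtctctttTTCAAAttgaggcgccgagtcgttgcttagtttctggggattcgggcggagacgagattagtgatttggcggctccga
CDK1: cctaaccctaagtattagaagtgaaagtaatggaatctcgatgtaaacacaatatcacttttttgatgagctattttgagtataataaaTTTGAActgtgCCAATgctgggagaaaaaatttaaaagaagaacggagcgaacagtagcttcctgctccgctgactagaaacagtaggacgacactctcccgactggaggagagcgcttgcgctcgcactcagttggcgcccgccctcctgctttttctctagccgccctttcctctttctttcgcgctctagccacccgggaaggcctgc
TOP2A: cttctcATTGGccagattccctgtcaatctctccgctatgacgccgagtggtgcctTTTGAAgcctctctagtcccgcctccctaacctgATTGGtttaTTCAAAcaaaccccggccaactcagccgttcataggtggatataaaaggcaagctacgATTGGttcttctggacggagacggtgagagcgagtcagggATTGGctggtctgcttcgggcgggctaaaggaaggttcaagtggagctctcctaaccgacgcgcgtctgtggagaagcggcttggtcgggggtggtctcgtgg

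A GC box stood in 10 of the 10 promoters matched among the 14 leading genes above and in 9 of 10 among those below. That motif was common everywhere: it stood in 69.4% of 529 matched promoters of genes above, 75.7% of 723 of genes below, 60.0% of 14230 promoters of all genes, and 73.25% of 7604 promoters of genes at or above the median level. These matches describe the letters in the window and not the binding of a factor.

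**Figure D1:**
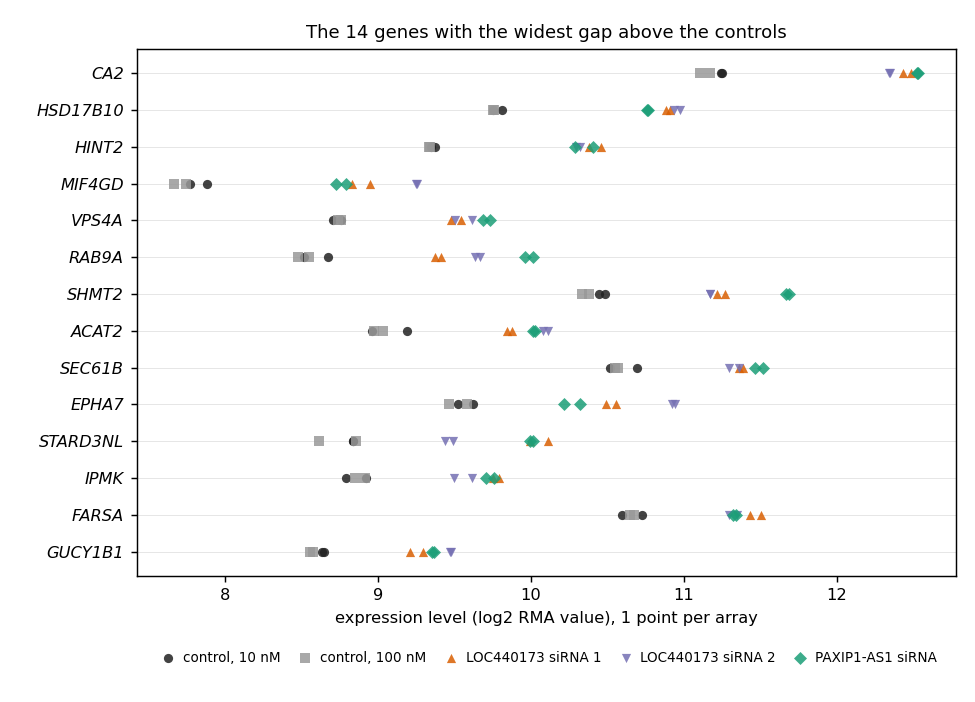
Expression levels (log2, horizontal axis) of the 14 genes with the widest gap above the controls, with a point for each of the 10 arrays and a marker for each group. The 4 control points of each gene sit to the left of all 6 target points, by 1.09 for CA2 and by 0.56 for GUCY1B1.

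Mitochondrial and endosomal genes stood among the other leading genes above the controls. HSD17B10, a mitochondrial dehydrogenase that is also a subunit of mitochondrial RNase P, read 9.81, 9.75, 9.75 and 9.76 on the controls, 10.88 and 10.91 with siRNA 1, 10.98 and 10.94 with siRNA 2, and 10.77 and 10.76 with the PAXIP1-AS1 siRNA. Its difference was 1.10 (SE 0.06, limma adjusted p = 4.95e-06), with the lowest target array 0.95 above the highest control. HINT2, a mitochondrial nucleotide hydrolase of the histidine triad family, read 9.35, 9.38, 9.33 and 9.34 on the controls and between 10.29 and 10.46 on the target arrays. HINT2 rose by 1.01 (SE 0.05, limma adjusted p = 4.95e-06), and the siRNAs differed little for it, with 1.06, 0.95 and 1.01 for siRNA 1, siRNA 2 and the PAXIP1-AS1 siRNA against their own controls.

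MIF4GD, a partner of the stem-loop binding protein in the translation of histone mRNA, read 7.77, 7.88, 7.67 and 7.75 on the controls, 8.83 and 8.95 with siRNA 1, 9.25 and 9.26 with siRNA 2, and 8.72 and 8.79 with the PAXIP1-AS1 siRNA. All target arrays were higher, those of siRNA 2 most, and MIF4GD rose by 1.20 (SE 0.11, limma adjusted p = 0.000414). VPS4A, the ATPase that takes ESCRT-III filaments apart, read 8.71 to 8.76 on the controls and 9.48 to 9.73 on the target arrays, a rise of 0.85 (SE 0.06, limma adjusted p = 8.8e-05). RAB9A, a GTPase of transport from late endosomes to the Golgi, rose by 1.12 (SE 0.13, limma adjusted p = 0.00205), and its levels formed 3 steps above the control range of 8.48 to 8.68. They were 9.42 and 9.37 with siRNA 1, 9.67 and 9.63 with siRNA 2, and 9.96 and 10.01 with the PAXIP1-AS1 siRNA.

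SHMT2, the mitochondrial serine hydroxymethyltransferase, stood at 10.45, 10.49, 10.33 and 10.38 on the controls, 11.22 and 11.27 with siRNA 1, 11.17 and 11.17 with siRNA 2, and 11.67 and 11.69 with the PAXIP1-AS1 siRNA. The LOC440173 arrays lay close together and the PAXIP1-AS1 arrays above them, with an overall difference of 0.95 (SE 0.12, limma adjusted p = 0.00288). ACAT2, a cytosolic acetyl-CoA acetyltransferase, had the same overall difference of 0.95 (SE 0.07, limma adjusted p = 9.53e-05), with 8.96 to 9.19 on the controls and 9.85 to 10.11 on the target arrays. SEC61B, a subunit of the channel through which proteins enter the endoplasmic reticulum, rose by 0.81 (SE 0.06, limma adjusted p = 9.26e-05), and FARSA, the alpha subunit of the phenylalanyl-tRNA synthetase, by 0.71 (SE 0.06, limma adjusted p = 0.000152).

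The rest of the 14 were signalling genes and a membrane contact protein. EPHA7, an ephrin receptor, read 9.47 to 9.62 on the controls and 10.22 to 10.94 on the target arrays, and rose by 1.03 (SE 0.14, limma adjusted p = 0.00455). STARD3NL, a protein of contacts between endosomes and the endoplasmic reticulum, was highest with siRNA 1 (10.11 and 10.00) and the PAXIP1-AS1 siRNA (10.01 and 10.00) and lower with siRNA 2 (9.44 and 9.49). Its controls were at 8.84, 8.84, 8.62 and 8.85, and the difference was 1.06 (SE 0.14, limma adjusted p = 0.00406). IPMK, an inositol polyphosphate kinase, rose by 0.82 (SE 0.07) and GUCY1B1, the beta subunit of soluble guanylate cyclase, by 0.76 (SE 0.06), both with a limma adjusted p of 0.000164. All 14 genes kept their call when any of the 10 arrays was left out, with a highest limma adjusted p of 0.0272, for EPHA7 without control 10 nM replicate 1. With the random block all 14 were also called, with a highest adjusted p of 0.0203 for STARD3NL.

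The leading genes were ranked among those whose higher side, the targets for genes above and the controls for genes below, had a mean at or above 7.66, the median level of all genes. A gene below could thus enter through its control level alone, as ADCYAP1R1 and PNPLA4 did, with target means of 6.75 and 7.14.

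Among the genes below the controls the widest gap was that of TP53INP1, a p53-induced gene whose product promotes arrest and cell death. It read 8.96, 9.11, 9.02 and 9.10 on the controls, 7.66 and 7.65 with siRNA 1, 7.99 and 7.90 with siRNA 2, and 8.14 and 8.23 with the PAXIP1-AS1 siRNA. Every target array lay at least 0.73 below the lowest control, and TP53INP1 fell by 1.12 (SE 0.12, limma adjusted p = 0.00086). EDA2R, a receptor for ectodysplasin A2 that p53 induces, had nearly as wide a gap, 0.71, but its control mean of 7.62 was under the median level of all genes. It read 7.61, 7.63, 7.55 and 7.69 on the controls and 6.57, 6.83, 6.71, 6.56, 6.49 and 6.54 on the target arrays, and fell by 1.00 (SE 0.07, limma adjusted p = 8.8e-05).

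**Figure D2:**
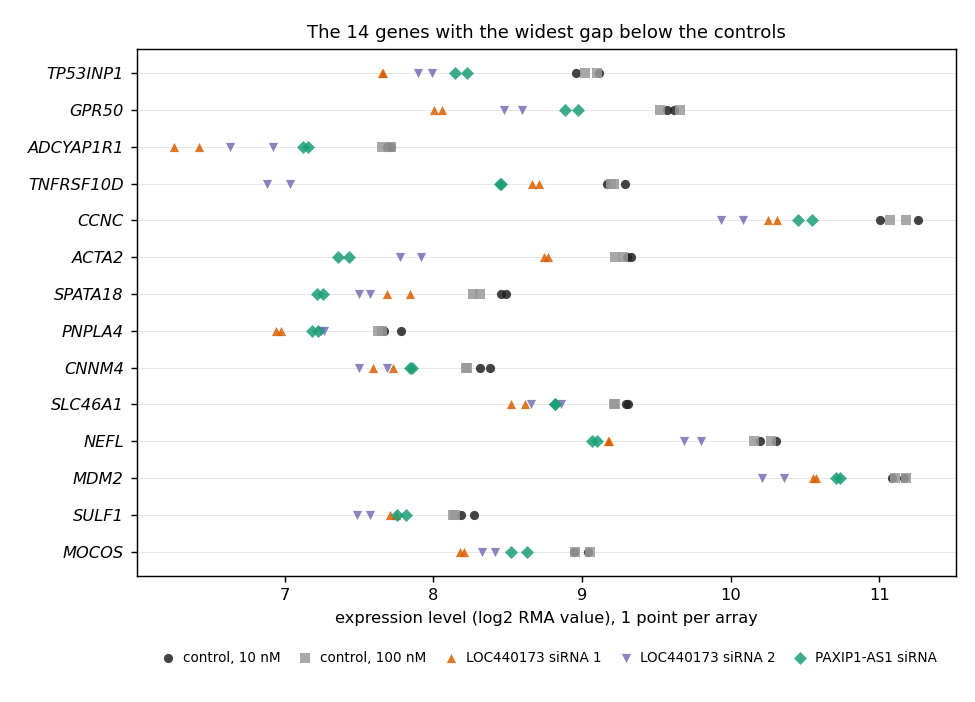
Expression levels (log2, horizontal axis) of the 14 genes with the widest gap below the controls among genes whose control mean reached the median level of all genes, with a point for each of the 10 arrays. All target points lie to the left of the control points, and the target points are spread most for TNFRSF10D, from 6.88 to 8.71.

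Receptors and structural genes followed, with a wider spread between siRNAs. GPR50, an orphan receptor related to the melatonin receptors, read 9.52 to 9.66 on the controls, 8.0 and 8.06 with siRNA 1, 8.59 and 8.47 with siRNA 2, and 8.89 and 8.97 with the PAXIP1-AS1 siRNA. The 3 siRNAs formed separate steps below the controls, and GPR50 fell by 1.10 (SE 0.18, limma adjusted p = 0.0137). ADCYAP1R1, the receptor for the neuropeptide PACAP, had the same order, with 7.65 to 7.71 on the controls and -1.36, -0.92 and -0.55 for the 3 siRNAs against their own controls. ADCYAP1R1 fell by 0.94 (SE 0.17, limma adjusted p = 0.0195).

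TNFRSF10D, a decoy receptor for the death ligand TRAIL, lay below the controls on every target array but was not called. It read 9.29, 9.17, 9.19 and 9.22 on the controls, 8.67 and 8.71 with siRNA 1, 7.04 and 6.88 with siRNA 2, and 8.45 and 8.46 with the PAXIP1-AS1 siRNA. The large drop with siRNA 2 alone widened the spread, and the difference was -1.18 (SE 0.36, limma adjusted p = 0.138). ACTA2, smooth muscle actin, fell by 1.28 (SE 0.27, limma adjusted p = 0.0416), from 9.33, 9.31, 9.22 and 9.28 on the controls to 8.75 and 8.77 with siRNA 1, 7.77 and 7.92 with siRNA 2, and 7.36 and 7.43 with the PAXIP1-AS1 siRNA. It was the gene with the largest drop among the 14, and the PAXIP1-AS1 arrays were lowest.

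CCNC, cyclin C of the Mediator kinase module, read 11.01, 11.26, 11.07 and 11.18 on the controls and 9.94 to 10.55 on the target arrays, and fell by 0.87 (SE 0.11, limma adjusted p = 0.0038). NEFL, the neurofilament light chain that HEK-293 cells express, was at 10.16 to 10.30 on the controls, at 9.18 on both siRNA 1 arrays, at 9.69 and 9.80 with siRNA 2 and at 9.07 and 9.10 with the PAXIP1-AS1 siRNA. NEFL fell by 0.90 (SE 0.15, limma adjusted p = 0.0126), least with siRNA 2. Among transport and matrix genes, CNNM4, a magnesium transporter, fell by 0.58, SLC46A1, the proton-coupled folate transporter, by 0.55, and SULF1, a heparan sulfate endosulfatase, by 0.50 (limma adjusted p = 0.00455, 0.00455 and 0.00654). PNPLA4, a lipid hydrolase of the patatin family, fell by 0.54 and MOCOS, the molybdenum cofactor sulfurase, by 0.62 (limma adjusted p = 0.00654 for each).

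These calls were less stable than those above. On leaving out 1 array, GPR50 and ADCYAP1R1 lost the call without any of 4 arrays (highest limma adjusted p = 0.0664 and 0.0875), ACTA2 without any of 7 (0.134), and NEFL and MDM2 without any of 3 (0.0652 and 0.0615). With the random block, TP53INP1, GPR50, CCNC and SPATA18 of the 14 kept an adjusted p under 0.05, and the highest of these was 0.047 for GPR50.

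The p53 target list had the largest share of members in a single direction, below the controls. Of 26 measured targets, 17 lay below all controls on every target array and 0 above, beside 4.74% and 3.54% of all genes. limma called 5 of the 26 lower and 0 higher, beside 0.712% and 0.967% of all genes: TP53INP1, EDA2R, SPATA18, MDM2 and AEN. The median difference over the list was -0.34, against 0.01 over all genes, and 24 of the 26 were at or above the median level in the controls. Of the 9202 genes at or above that level over all arrays, 685 lay below and 554 above. The list was chosen with earlier results of these data known, so its direction is a description and not independent evidence.

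**Figure D3:**
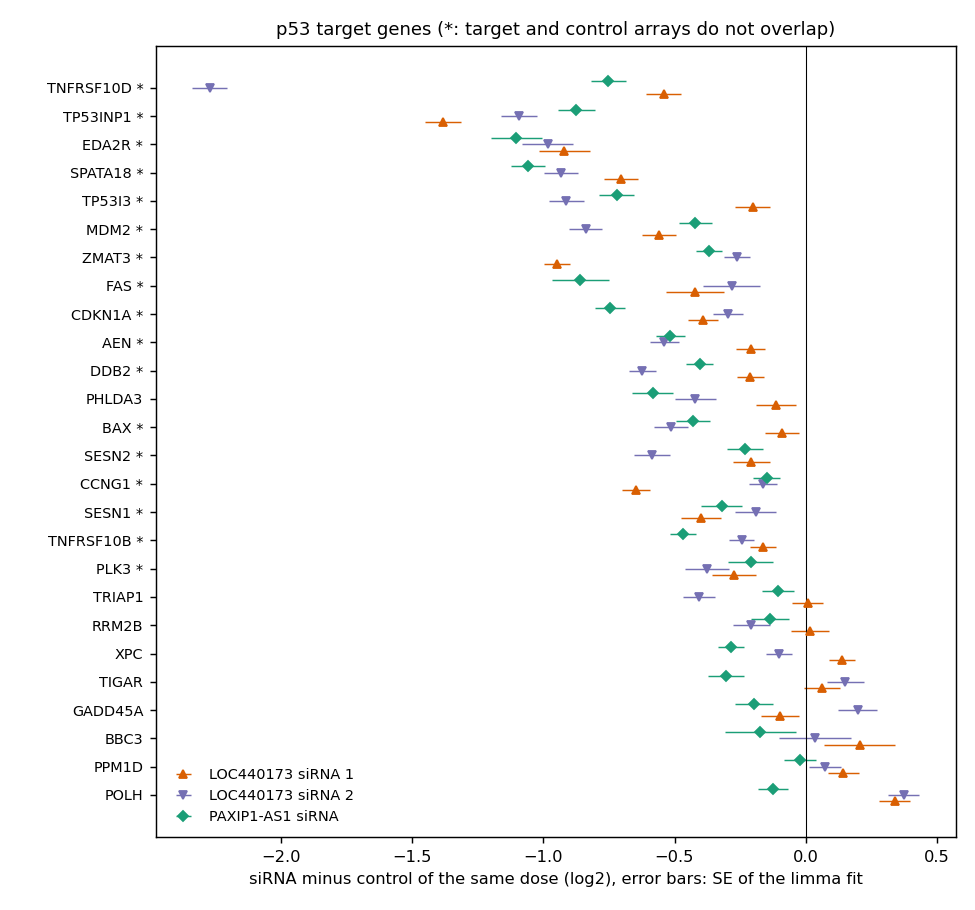
Log2 difference of each siRNA from the control of its own dose (horizontal axis) for 26 p53 targets, with the standard error of the limma fit as bars; a star marks the 17 genes whose target and control arrays do not overlap. Most points lie left of 0 with all 3 siRNAs, and POLH, PPM1D, BBC3 and TIGAR are right of it with both LOC440173 siRNAs.

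The feedback regulator of p53, the ubiquitin ligase MDM2, read 11.08, 11.17, 11.11 and 11.18 on the controls, 10.58 and 10.56 with siRNA 1, 10.21 and 10.36 with siRNA 2, and 10.71 and 10.73 with the PAXIP1-AS1 siRNA. All target arrays were lower, those of siRNA 2 most, and MDM2 fell by 0.61 (SE 0.10, limma adjusted p = 0.0121). SPATA18, which acts in mitochondrial quality control, fell by 0.87 (SE 0.12, limma adjusted p = 0.00455), and AEN, an apoptosis-enhancing nuclease, by 0.42 (SE 0.08, limma adjusted p = 0.0308). CDKN1A, the cell cycle inhibitor p21, lay between 8.94 and 9.05 on the controls and between 8.21 and 8.74 on the target arrays, a difference of -0.47 (SE 0.11, limma adjusted p = 0.0528). It missed the threshold although no arrays overlapped.

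The death receptor genes lay below the controls without passing the test. FAS differed by -0.51 (SE 0.15, limma adjusted p = 0.114) and TNFRSF10B, a TRAIL receptor that signals death, by -0.29 (SE 0.08, limma adjusted p = 0.119). Among regulators of stress and repair, the RNA-binding protein ZMAT3 differed by -0.52, the oxidoreductase TP53I3 by -0.61, the repair factor DDB2 by -0.39, and SESN1 and SESN2, which restrain mTORC1, by -0.30 and -0.33. For these 5 genes limma gave adjusted p-values from 0.0531 to 0.111. BAX, which permeabilises the outer mitochondrial membrane, was a member by a margin that rounds to 0.00 and differed by -0.35 (limma adjusted p = 0.109), while PHLDA3 was no member, its closest arrays overlapping with a gap of -0.01. CCNG1 and PLK3 completed the 17, at -0.32 and -0.27 (limma adjusted p = 0.221 and 0.0644).

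Of the targets that overlapped, POLH, a translesion polymerase, differed by 0.20 and GADD45A by -0.02 (limma adjusted p = 0.495 and 0.962), and BBC3, which encodes PUMA, by 0.01 (0.976). Against their own controls, siRNA 1 lowered 14 of the 26 targets, siRNA 2 17 and the PAXIP1-AS1 siRNA 15, beside 16.7%, 17.4% and 1.76% of all genes, and raised 1, 1 and 0, beside 12.1%, 12.5% and 2.86%. The list medians were -0.21, -0.34 and -0.39 in that order, the first pair with shared controls. The order of the genes differed between the siRNAs. ZMAT3 was at -0.95 with siRNA 1 but -0.26 with siRNA 2, and TP53I3 at -0.20 with siRNA 1 but -0.91 with siRNA 2. Of the 17 promoters, 14 were matched, and 0 held a p53 site in the searched form of 2 adjoining copies of the core motif. Only 1 of 14230 promoters of all genes held that form, so the 0 could hardly have been otherwise and carries no information. A single copy stood in 1 of the 14 (7.14%), against 5.95% of promoters of all genes. Sites outside the window were not searched.

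Genes of mitosis lay above the controls in part. Of 31 measured genes, 12 lay above all controls on every target array and 0 below, beside 3.54% and 4.74% of all genes. All 31 were at or above the median level in the controls. Of the 9202 genes at or above that level over all arrays, 554 lay above and 685 below. limma called 3 of the 31 higher and 0 lower, beside 0.967% and 0.712% of all genes: KIF11, BUB3 and TPX2. The differences were small, with a list median of 0.20 against 0.01 over all genes.

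**Figure D4:**
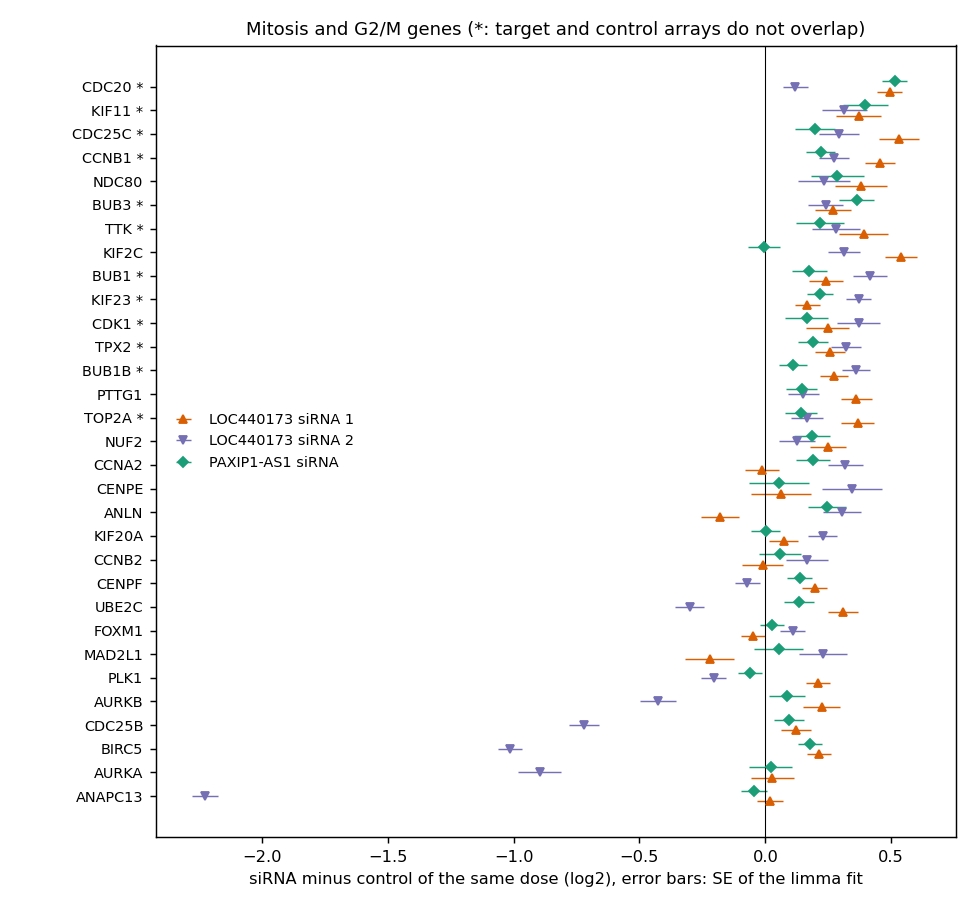
Log2 difference of each siRNA from the control of its own dose (horizontal axis) for 31 genes of mitosis and G2/M, with the standard error of the limma fit as bars; a star marks the 12 genes whose target and control arrays do not overlap. Starred genes lie right of 0 with all 3 siRNAs, while ANAPC13, AURKA, BIRC5 and CDC25B lie far left with siRNA 2 only.

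KIF11, the kinesin that pushes spindle poles apart, read 9.78 to 10.00 on the controls and 10.10 to 10.30 on the target arrays, and rose by 0.37 (SE 0.06, limma adjusted p = 0.016). BUB3, of the spindle checkpoint, rose by 0.30 (SE 0.06, limma adjusted p = 0.024), and TPX2, a spindle assembly factor, by 0.26 (SE 0.05, limma adjusted p = 0.0431). CDC20, the activator of the anaphase-promoting complex, had the largest difference above the controls in the list, 0.40 (SE 0.09), with 11.16 to 11.32 on the controls and 11.44 to 11.83 on the target arrays, but a limma adjusted p of 0.0526. CCNB1 (cyclin B1) differed by 0.32, its kinase CDK1 by 0.26 and the phosphatase CDC25C by 0.34 (limma adjusted p = 0.0541, 0.0977 and 0.0794). The checkpoint kinases TTK, BUB1 and BUB1B, the kinesin KIF23 and the topoisomerase TOP2A differed by 0.22 to 0.29 without passing the test.

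Against their own controls, siRNA 1 raised 19 of the 31 genes and lowered 0, beside 12.1% and 16.7% of all genes. siRNA 2 raised 13 and lowered 7, beside 12.5% and 17.4%, and the PAXIP1-AS1 siRNA raised 2 and lowered 0, beside 2.86% and 1.76%. Mitotic genes that overlapped included ANAPC13, a small subunit of the anaphase-promoting complex, at 0.02, -2.22 and -0.04 for siRNA 1, siRNA 2 and the PAXIP1-AS1 siRNA. The kinase AURKA was at 0.03, -0.90 and 0.02, and BIRC5, which encodes survivin, at 0.21, -1.01 and 0.18. Of the 12 genes above, 9 had a matched promoter, of which 7 held CCAAT and 6 held TTTGAA, as in the CDC20, KIF11, CDK1 and TOP2A sequences above. Over all genes 36.3% of promoters held CCAAT and 11.9% TTTGAA, and over genes at or above the median level 38.09% and 9.55%. Over all 529 matched promoters of genes above the controls these shares were 40.8% and 14.2%. The mitotic genes that overlapped were not counted, so the motifs are not shown to be particular to the 12.

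**Figure D5:**
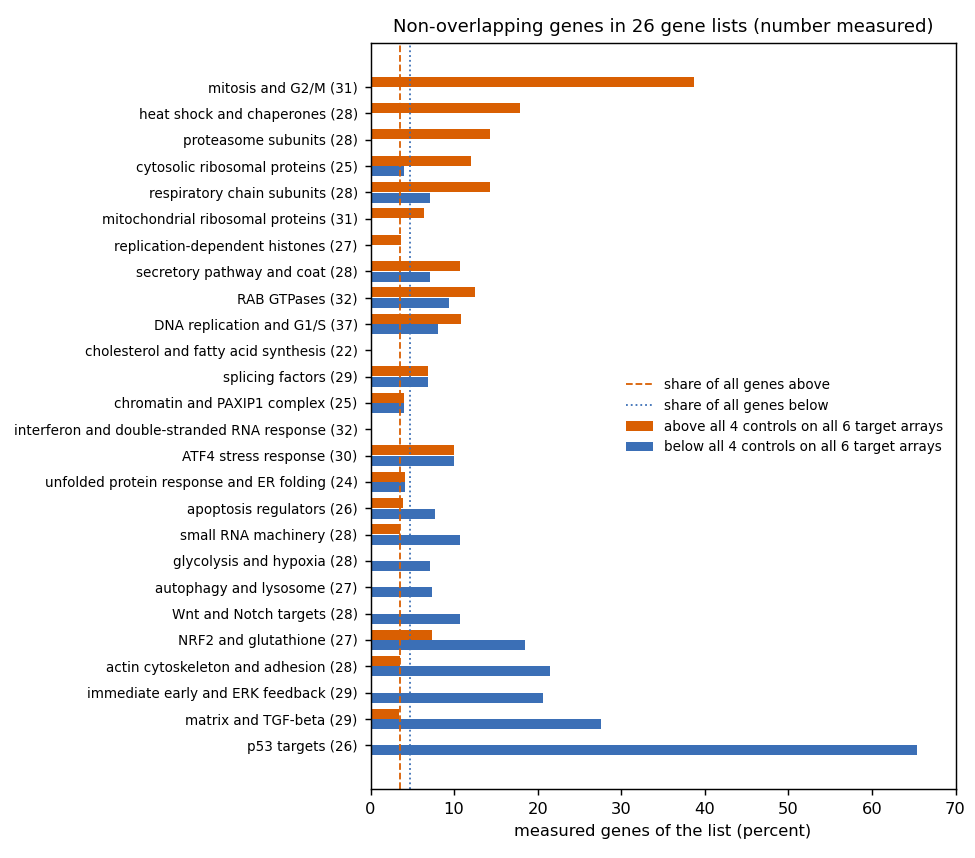
Share of the measured genes of 26 gene lists (percent, horizontal axis; number measured in parentheses) that lay above or below all controls on all 6 target arrays, with the shares of all genes, 3.54% and 4.74%, as vertical lines. The p53 targets reach furthest below, with 17 of 26 genes, and the mitosis list furthest above, with 12 of 31.

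Immediate early genes, which growth factor and stress signals switch on within minutes, contributed 6 members below and 0 above among 29 measured, beside 4.74% and 3.54% of all genes, and limma called 4 of them lower, beside 0.712%. In the controls 12 of the 29 were at or above the median level. FOS, a subunit of the AP-1 transcription factor, read 7.23 to 7.58 on the controls and 6.72 to 6.93 on the target arrays and fell by 0.51 (SE 0.08, limma adjusted p = 0.0104). DUSP1, a phosphatase that switches MAP kinases off, fell by 0.43 (SE 0.06, limma adjusted p = 0.00772) and KLF10, a zinc finger repressor, by 0.27 (SE 0.05, limma adjusted p = 0.024). FOSB, a partner in AP-1, fell by 0.48 (SE 0.10, limma adjusted p = 0.0407), while EGR1 and KLF4 completed the members at -0.52 and -0.21 (limma adjusted p = 0.0655 and 0.125). The list median was -0.09, so differences over the list as a whole were small.

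Matrix and TGF-beta genes had 8 members below and 1 above among 29, beside 4.74% and 3.54% of all genes. limma called 1 of the 29 lower, ACTA2, beside 0.712% of all genes. LAMB1 and LAMC1, the beta and gamma chains of laminin, lay on opposite sides. LAMB1 read 9.38 to 9.44 on the controls and 8.56 to 9.20 on the target arrays, a difference of -0.54 (SE 0.13, limma adjusted p = 0.0571). LAMC1 read 9.44 to 9.57 on the controls and 9.76 to 10.92 on the target arrays, a difference of 0.81 (SE 0.22, limma adjusted p = 0.106), with 1.44 for siRNA 2 and 0.31 for siRNA 1. The other members below were SPARC, LAMA1, LOXL2, COL4A2, FN1 and SPON1. Of the 28 actin and adhesion genes, 6 lay below and 1 above, again beside 4.74% and 3.54% of all genes. In the controls 24 of the 28 were at or above the median level. None of the 6 was called. The member above, ITGAV, an integrin alpha chain, rose by 0.62 (SE 0.12, limma adjusted p = 0.0245).

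Chaperone genes lay above where they separated. Of 28 measured, 5 were members above and 0 below, beside 3.54% and 4.74% of all genes. In the controls 24 of the 28 were at or above the median level. At or above that level over all arrays, 554 of 9202 genes lay above and 685 below. limma called 2 of the 28 higher, beside 0.967% of all genes. PTGES3, the HSP90 co-chaperone p23, rose by 0.49 (SE 0.07, limma adjusted p = 0.00646), from 11.15 to 11.42 on the controls to 11.71 to 11.93 on the target arrays. DNAJB4, a J-domain co-chaperone, rose by 0.73 (SE 0.15, limma adjusted p = 0.0378). HSPA4, CCT2 and HSPH1 were the other members, and HSPA4 differed by 0.19 (limma adjusted p = 0.105).

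Among respiratory chain subunits 4 of 28 lay above and 2 below, beside 3.54% and 4.74% of all genes. All 28 were at or above the median level in the controls. At or above that level over all arrays, 554 of 9202 genes lay above and 685 below. limma called 2 of the 28 higher, beside 0.967% of all genes, but the list median was -0.05. SDHD, the membrane anchor of succinate dehydrogenase, rose by 0.37 (SE 0.05, limma adjusted p = 0.00455), and its other probe set also separated. COX4I1, a subunit of cytochrome c oxidase, rose by 0.30 (SE 0.05, limma adjusted p = 0.0211), while NDUFB5 differed by 0.91 (SE 0.23, limma adjusted p = 0.0794), with 1.30 for siRNA 1, 0.19 for siRNA 2 and 1.19 for the PAXIP1-AS1 siRNA. Of 28 proteasome subunits 4 lay above and 0 below, beside the same shares of all genes, with a list median of 0.02. These 28 were also all at or above the median level in the controls. PSMA2 alone was called higher (0.30, SE 0.06, limma adjusted p = 0.0295).

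Membrane traffic genes were divided. Of 32 RAB GTPases 4 lay above and 3 below, beside 3.54% and 4.74% of all genes. RAB9A and RAB6A were called higher, beside 0.967% of all genes, RAB6A by 0.26 (SE 0.05, limma adjusted p = 0.0407). Of 28 secretory genes 3 lay above and 2 below, with SEC61B and SEC62 called higher, beside the same shares of all genes. In the controls 26 of the 32 RAB genes and all 28 secretory genes were at or above the median level. At or above that level over all arrays, 554 of 9202 genes lay above and 685 below. SEC62 rose by 0.34 (SE 0.06, limma adjusted p = 0.013). SEC61A1, the pore subunit of the same channel as SEC61B, lay below. Among genes that the stress factor ATF4 controls, 3 of 30 lay above and 3 below, again beside 3.54% and 4.74%. SHMT2 and PHGDH, the first enzyme of serine synthesis, were called higher, but the list median was -0.11. Against their own controls, siRNA 1 raised 2 of the 30 and lowered 17, beside 12.1% and 16.7% of all genes. siRNA 2 raised 12 and lowered 6, beside 12.5% and 17.4%, and the PAXIP1-AS1 siRNA raised 9 and lowered 0, beside 2.86% and 1.76%. PHGDH rose by 0.69 (SE 0.13, limma adjusted p = 0.0261), by 0.29 with siRNA 1, 0.83 with siRNA 2 and 0.93 with the PAXIP1-AS1 siRNA.

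In the antioxidant list 1 of 27 genes was called higher, beside 0.967% of all genes, the ferritin light chain FTL (0.33, SE 0.07, limma adjusted p = 0.0379). Members were 2 genes above and 5 below, beside 3.54% and 4.74% of all genes. MGST1, a membrane-bound glutathione transferase, was the lowest of these by difference, at -1.08 (SE 0.31, limma adjusted p = 0.111), with -1.81 for siRNA 2 and -0.35 for the PAXIP1-AS1 siRNA. Of 28 glycolysis and hypoxia genes, 2 lay below and 0 above, beside 4.74% and 3.54% of all genes. NDRG1, which hypoxia induces, fell by 0.55 (SE 0.09, limma adjusted p = 0.0118), and PFKFB3 was the only other member. TNRC6A, an Argonaute partner in silencing by small RNAs, rose by 0.43 (SE 0.08, limma adjusted p = 0.018), while its relative TNRC6C lay below the controls with a difference of -0.40 (limma adjusted p = 0.252).

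In all, limma called 29 genes of the lists, marker lists included, beside 309 of all 18404 genes (1.68%). Some genes stood in more than 1 list and the different genes were not counted, so 29 is not given as a share. Of the 29, 10 kept the call when any array was left out: TP53INP1, EDA2R, SPATA18, FOS, DUSP1, SHMT2, SEC61B, RAB9A, PTGES3 and SDHD. The other 19 lost it without at least 1 array, with a highest limma adjusted p of 0.156 for TPX2. With the random block, TP53INP1, EDA2R, SPATA18, SHMT2, SEC61B and RAB9A were called, and the other 23 were not, with a highest adjusted p of 0.418 for FOSB.

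Interferon response genes had 0 of 32 on either side and cholesterol and fatty acid synthesis genes 0 of 22, beside 8.28% of all genes. In the controls 5 of the 32 interferon genes and all 22 cholesterol genes were at or above the median level. Of the 9202 genes at or above that level over all arrays, 554 lay above and 685 below. Most interferon genes were dim, so the share of all genes is a poor measure for that list. Apoptosis regulators had 1 of 26 above and 2 below, beside 3.54% and 4.74% of all genes. The first was BCL2L11, which encodes BIM, at 0.29, and those below were XIAP at -0.47 and BAX. Replication genes had 7 of 37 on either side, beside 8.28% of all genes, none of them called: 4 above, with CCNE2 (cyclin E2) at 0.42, and 3 below, with GINS4 at -0.36. In the controls 35 of the 37 were at or above the median level. limma gave BCL2L11, XIAP, BAX, CCNE2 and GINS4 adjusted p-values from 0.0667 to 0.188. Autophagy and lysosome genes had 0 of 27 above and 2 below, again beside 3.54% and 4.74% of all genes. The 2 were cathepsin D (CTSD) and the galactosidase GLA.

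Over all members the separations were small. The median difference was 0.28 for the 651 genes above and -0.31 for the 873 below. A difference of at least 1 was reached by 9 genes above and 12 below, and the gap between the closest arrays had a median of 0.059 above and 0.0596 below. Members were brighter than the rest, with a median level of 9.57 above and 8.89 below against 7.66 for all genes. The pooled fit called 178 of the 651 (27.3%) and 131 of the 873 (15.0%), shares that follow from the rule and are given as a description.

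The 3 siRNAs did not contribute alike. Among genes above, siRNA 2 had the largest difference from its own control for 322, siRNA 1 for 203 and the PAXIP1-AS1 siRNA for 126. Among genes below, these numbers were 420, 395 and 58, and over all genes 6891, 8495 and 3018. The target array closest to the controls belonged to the PAXIP1-AS1 siRNA for 323 of the 651 genes and 556 of the 873. Median differences for siRNA 1, siRNA 2 and the PAXIP1-AS1 siRNA were 0.26, 0.32 and 0.21 above and -0.35, -0.35 and -0.17 below. Against their own controls all 3 siRNAs were called in the same direction for 144 genes above and 103 below, and these made up all 247 such genes of the 18404. These calls read the same arrays as the rule, so the overlap is a description and not support for either. The direct contrast of siRNA 2 with siRNA 1, which uses no control array, called 150 members above higher and 81 lower with siRNA 2, and 213 members below higher and 238 lower, beside 18.2% and 19.0% of all genes. The control doses differed at an adjusted p under 0.05 for 0 of the members. At an unadjusted p under 0.05 they differed for 22 above and 19 below, beside 692 of all 18404 genes. The rule favours genes whose control arrays lie close together. The median standard deviation of the controls was 0.060 above and 0.048 below, against 0.082 over all genes.

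At the edge of the rule, CETN2 and SMARCA2 were members above by under 0.001, and LRRFIP2 and PIGK missed by as little. SPOP and TBCB were just inside below, and AKAP12 and RAB8A just outside. SPOP, a substrate adaptor of an ubiquitin ligase, had a difference of -0.21 and RAB8A, which was outside, one of -0.28, so membership at the edge does not follow the size of the difference.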

How the data were processed

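RNA from 10 arrays was used. The authors deposited log2 values for 32321 probe sets, made with RMA (background correction, quantile normalization, probe set summary) per the submitters' processing notes, which also name limma without a version. The sources used here do not give the array definition, genome build or filters, and levels above background are unknown. Precision is limited by the number of arrays. No further scaling was applied.

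The platform annotation gave 1 symbol for 19158 probe sets, several for 1388 (not named), and did not list 11775. Where a gene had more than 1 probe set (637 genes), the brightest on average stood for it. This left 18404 genes, 18375 of them with an ID in RefSeq.

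Groups came from the labels. limma 3.58.1 (R 4.3.3, lmFit and eBayes, two-sided, Benjamini-Hochberg adjustment) compared 6 target with 4 control arrays (8 residual and 3.27 prior degrees of freedom), and groups with each other in a fit with a mean per group (5 and 2.87). The pooled fit was tested on simulated data with independent noise on every array. That test could not cover deviations shared by arrays of the same siRNA. Errors are standard errors (SE). Promoters were matched by symbol for 14230 genes (GRCh38.p14).

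The members, the 33 gene lists (26 of pathways, 7 of cell type markers) and the tests were chosen with earlier results of these data known. Named genes were the 14 with the widest gap on each side whose higher side (target mean above, control mean below) reached the median level, the targets, PAXIP1, up to 3 members per list and the genes next to the edge of the rule. All other genes of the lists, and those named in the closing section, were chosen after their values were seen.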

Additional observations from a re-analysis of the deposited data

Results flagged for a closer look

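Of 192 groups of values checked for the named genes, 8 held an array far from the others of its side, 7 among controls and 1 among targets. Chance gives about 1 in 20. Among the 4 controls, HSD17B10 read 9.81 in control 10 nM replicate 1 with the next at 9.76, and E2F2, an activator of S-phase genes, read 7.62 there with the next at 7.59. FOS read 7.58 in control 10 nM replicate 2, with the next control at 7.26 and the highest target array at 6.93. STARD3NL read 8.62 in control 100 nM replicate 1, with the next at 8.84. In the same array MRPL18, a mitochondrial ribosomal protein, read 11.13 with the next at 11.17, and SRSF11, a splicing factor, read 12.28 with the next at 12.30. ADAR, which edits double-stranded RNA, read 10.64 in control 100 nM replicate 2, with the next at 10.59. Among the 6 target arrays, TPM4, a tropomyosin, read 9.62 in siRNA 2 replicate 1, with the next at 9.85. All 8 genes were members with these arrays included.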

How the results depend on the processing

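A repeat of quantile normalization, averaging of probe sets, omission of dim genes, dose as a block, and a trend with a robust prior kept the counts of members and of called genes within 1.5 times. Leaving out both siRNA 1 arrays gave 1274 genes above and 1606 below, with 373 called higher and 287 lower. Without siRNA 2 these counts were 1190, 1525, 310 and 261, and without the PAXIP1-AS1 siRNA 1512, 2118, 652 and 1096. Without the control at 10 nM they were 1330, 1356, 24 and 2, and without the control at 100 nM 1021 above, with 14 higher and 1 lower. Fewer arrays make the overlap rule easier to meet. A spread from replicate arrays only called 1826 higher and 2944 lower, the random block 28 and 7, and array weights 456 and 355. A gap of at least 0.1 left 221 above and 250 below. Leaving out single arrays gave 694 to 966 above, 926 to 1079 below, 58 to 211 called higher and 23 to 243 lower. It gave 3294 to 5663 calls for siRNA 1, 4190 to 5155 for siRNA 2, 110 to 895 for the PAXIP1-AS1 siRNA and 0 for the control doses. Only the compared groups in the fit called 3494, 2788 and 181 for siRNA 1, siRNA 2 and the PAXIP1-AS1 siRNA. For the last, the count was 1879 without dim genes, 1784 under the robust trend prior and 1544 under array weights. RPS9 reversed to 0.24 (adjusted p = 0.456) with the mean of its probe sets, and PAXIP1 to -0.022 (0.838) without siRNA 2. The causes were not tested. In alternatives chosen after seeing the data, 17 to 18 p53 targets lay below with single arrays left out and 17 to 21 with a group left out, and 12 to 15 and 12 to 18 mitosis genes above. Over 96 named genes, 188 values under alternatives lost the call, 137 gained it and 2 reversed.

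Replicate numbers were not taken as pairs. The difference of replicate 1 and 2 correlated between groups at r = 0.07 to 0.53, a hint from the data and not the design. The correlations that involve siRNA 1 were the lowest, at 0.07 to 0.09. With the replicate block limma called 163 higher and 98 lower, 6739 for siRNA 1, 6329 for siRNA 2 and 1325 for the PAXIP1-AS1 siRNA.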

Other observations

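Members also lay next to each other in the genome by RefSeq gene order. Of the genes above, 71 (10.9%) had a neighbour that was also above, against 6.92% of all genes with such a neighbour, and of the genes below 120 (13.8%), against 9.19%. Adjacent genes below included ACTA2 and FAS, the TRAIL receptors TNFRSF10B and TNFRSF10D, and the binding proteins of insulin-like growth factors IGFBP2 and IGFBP5. The retrotransposon-derived genes RTL8A, RTL8B and RTL8C were also adjacent and below, and since they are near-identical copies their probe sets may not tell them apart. Adjacent genes above included NPAT and the checkpoint kinase ATM, SLIT2 and MIR218-1, which lies within it, and HOXC9 and HOXC8. No test was made of this pattern.

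Protein-coding genes, 16896 of the 18404 measured, held 628 members above (3.72%) and 854 below (5.05%), beside 3.54% and 4.74% of all genes. Of 626 long non-coding RNA genes 9 lay above (1.44%) and 8 below (1.28%). Of 173 microRNA genes 2 lay above (1.16%), MIR218-1 and MIR128-1, and 0 below. A second probe set bears on some members. Of 26 member genes above with other probe sets, 4 of the 36 other probe sets also separated above, for ATP5MK, CKS1B, HMGN1 and SDHD. Of 31 other probe sets of 29 genes below, 5 separated below, for C4orf46, FBXO17, KLHDC10, METTL1 and RNF213. The difference had the sign of the main probe set for 28 of the 36 and 23 of the 31, and the opposite sign for the rest. Of the 36 and the 31, 21 and 14 were at or above the median level. TPM4, a member below at -0.24, had another probe set at 0.16.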
